A study of Saccharomyces cerevisiae with 6 samples.

Results

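BY4741 and W303 are laboratory strains of the budding yeast Saccharomyces cerevisiae, and the genes described here are those whose RNA differed between them whether or not the cells had been given edelfosine. The series holds 6 poly(A) RNA libraries, 4 of W303 and 2 of BY4741, and the strain of each was taken from its label. W303 gave replicates 1 and 2 of both treatments, and BY4741 gave replicate 3 of both. The cultures grew to log phase at 30 °C in synthetic defined medium with shaking at 200 rpm. They then received either 20 uM edelfosine, a synthetic ether lipid that resembles lysophosphatidylcholine, or 0.095% ethanol, its vehicle, for 60 min. BY4741 therefore had 1 library per treatment, and its strain cannot be told apart from whatever else was particular to replicate 3. The labels call the replicates biological and name no further alleles. As nothing says that the 2 treatments came from separate cultures, the p-values measure the spread between these samples.

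BY4741 is a MATa derivative of S288C, the strain behind the reference genome, and carries deletions of LEU2, URA3 and MET17 (also called MET15) and an internal deletion in HIS3. W303 has a partly different ancestry and usually carries point or frameshift alleles of LEU2, URA3, HIS3, TRP1, ADE2 and CAN1, whose RNA can still be made. S288C and its derivatives also carry a Ty1 transposon in HAP1, the gene of an activator that responds to heme and drives genes of respiration and of sterol synthesis. Proline, like other poor nitrogen sources, is taken up and broken down through genes that GATA factors and the proline-responsive activator Put3 control.

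The values are TPM, an abundance per transcript length with the same total in every library, scaled so that the typical gene is equal between libraries, and a difference is BY4741 minus W303 on log2(scaled TPM + 1) with treatment as a covariate, fitted with limma over 4 W303 and 2 BY4741 libraries. In bulk RNA a change in a few cells and a change in every cell cannot be told apart. Between 5550 and 5717 genes reached 1 TPM in a library, and read depth is unknown because TPM keeps none. The W303 vehicle libraries correlated at 0.992 over log2 values, the W303 edelfosine libraries at 0.959. Of the edelfosine libraries, W303 replicate 1 stood apart: W303 replicate 2 correlated with the BY4741 library at 0.973, and W303 replicate 1 with it at 0.949. All 6 libraries held MATa RNA, with the a-factor gene MFA2 between 453 and 9433 scaled TPM and the alpha-factor gene MF(ALPHA)1 at 0.496 to 4.22.

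Among 5750 rows tested, 42 (0.73%) differed between the strains at an adjusted p under 0.05 (limma), 20 of them higher in BY4741 (0.348%) and 22 lower (0.383%). Of the 20 higher rows, 10 (AIF1, HXT6, PAU6, PAU18, SOR2, YBR013C, YNR071C and the Ty rows YBR012W-B, YLR227W-B and YNL284C-B) reached 1 TPM in BY4741 only. GAS2 and TIR1 reached it in under 2 W303 libraries. These 12 entered the test only through the strain in which they are high. Their calls are given as descriptions and without a p-value below. The other 8 higher rows pass the filter without BY4741. With 1 TPM required in 3 libraries, which the 10 rows seen in BY4741 only cannot reach, 24 were called, 9 higher and 15 lower. Of the 22 lower rows, LEU2, URA3, MET17 and DAL80 reached 1 TPM in W303 only. Their calls are likewise given without a p-value. All 42 differed by more than 1 on the log2 scale, and in all 42 the BY4741 library lay outside both W303 libraries in the same direction in vehicle and in edelfosine. Such separation without a test was common: 949 rows (16.5%) lay apart on the higher side in both treatments and 992 (17.3%) on the lower side, so it adds little to a call. The 42 span auxotrophic genes, a cytochrome, heme breakdown, proline and nitrogen use, sugar and drug transporters, cell-wall genes and transposons, and 10 lie within 20 kb of a chromosome end, where 199 rows were tested. Of the 42, 18 also changed with treatment. The share of all rows that did so is not given here, so this count marks no trait of the 42. No gene passed the test for a strain difference that itself differed between treatments (limma, 0 calls, 189 at an unadjusted p under 0.05, smallest adjusted p = 0.0645), a test with 2 residual degrees of freedom.

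The number of calls rested on single libraries. It was 9 without W303 vehicle replicate 1 and 9 without W303 vehicle replicate 2, 15 without the BY4741 vehicle library and 14 without the BY4741 edelfosine library. It was 97 without W303 edelfosine replicate 1 and 222 without W303 edelfosine replicate 2. LEU2, URA3, MET17, AIF1, PUT4 and the transposon row YLR227W-B were called in all 6 of these fits, and the other 36 calls were lost in at least 1, while all 42 kept their direction in all 6. AIF1 and YLR227W-B are among the rows admitted through BY4741 only, and LEU2, URA3 and MET17 among those admitted through W303 only. The filter used all 6 libraries in each fit, so of these calls only PUT4 is free of that limit.

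**Figure D1:**
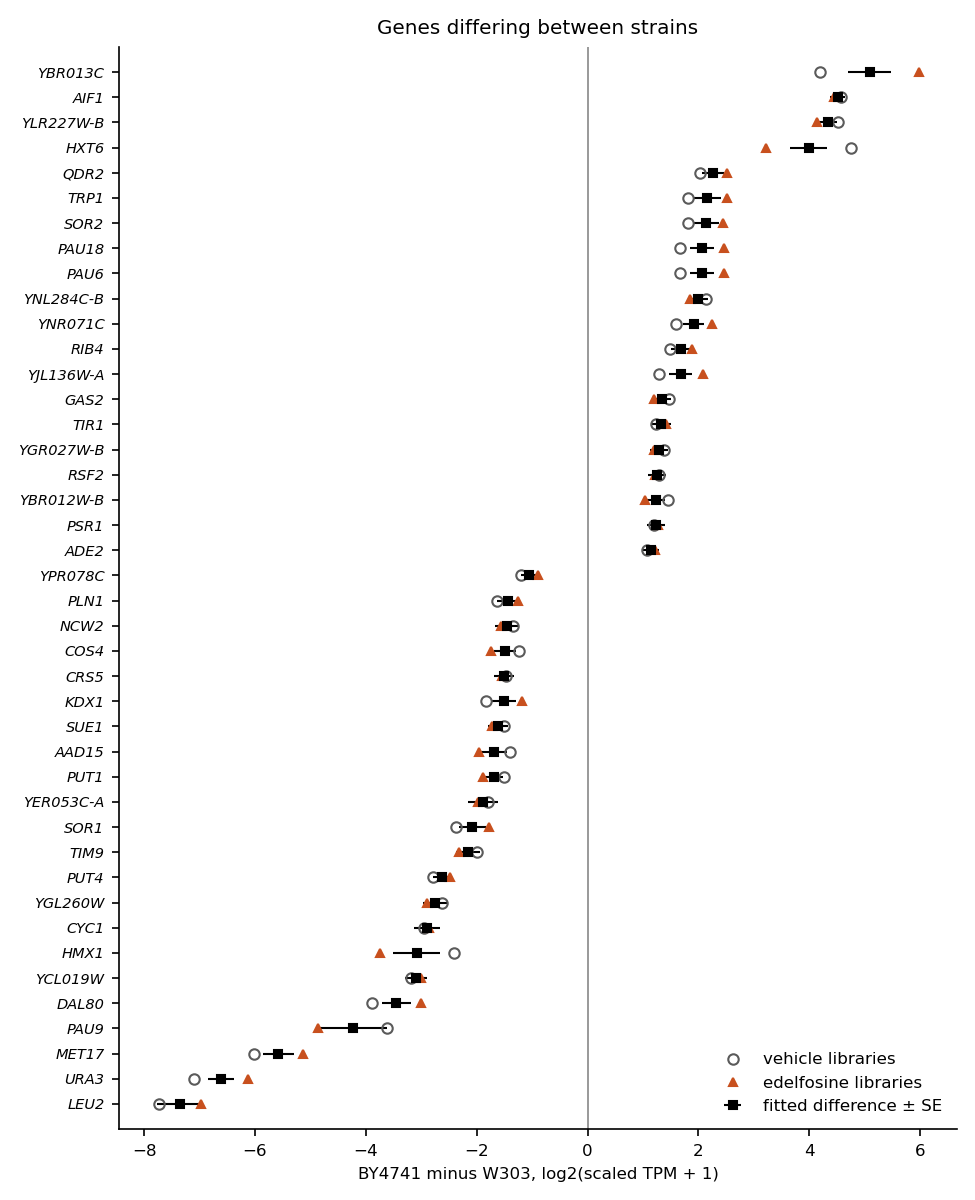
Strain difference, BY4741 minus W303 on log2(scaled TPM + 1), for the 42 genes called by limma; black squares are the fitted difference with its standard error (4 W303 and 2 BY4741 libraries), open circles the difference in vehicle and triangles that in edelfosine. Both treatments lie on the same side of 0 for every gene shown, from LEU2 at -7.36 to YBR013C at 5.09.

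Among the lower rows, the largest differences were at the auxotrophic loci LEU2, URA3 and MET17. LEU2, which encodes the isopropylmalate dehydrogenase of leucine synthesis, lay at 220.3 and 223 scaled TPM in the W303 vehicle libraries, at 223 and 80.5 in W303 edelfosine, and at 0.0434 and 0.0722 in BY4741 vehicle and edelfosine. URA3, the orotidine phosphate decarboxylase of pyrimidine synthesis, lay at 131 and 140.3 in W303 vehicle, at 71.9 and 73.4 in W303 edelfosine, and at 0 and 0.0523 in BY4741. MET17, the sulfhydrylase that builds homocysteine from sulfide, lay at 62.8, 64.7, 44.5 and 26.2 in the same order of W303 libraries and is listed at 0 in both of BY4741. All 3 genes were thus near 0 in BY4741 and expressed in every W303 library. The limma differences were -7.36 ± 0.41 (SE), -6.61 ± 0.24 and -5.58 ± 0.28. These values depend on the added 1 and are no measure of fold where one strain is at 0. No other row fell under 0.1 TPM in both BY4741 libraries while reaching 1 TPM in all 4 of W303.

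Of 23 tested neighbours, up to 3 on each side of LEU2, URA3, MET17 and HIS3, 2 were called (YCL019W and TIM9, both lower in BY4741), and the 21 others ranged from -0.92 for RIP1 to 0.50. TIM9, which encodes a small chaperone of the mitochondrial intermembrane space that guides proteins to the inner membrane, begins 240 bases beyond the end of URA3 on the same strand. It lay at 897 and 1205 scaled TPM in W303 vehicle, at 1314 and 1263 in W303 edelfosine, and at 259 and 257 in BY4741. Both BY4741 values were below all 4 of W303, a difference of -2.16 ± 0.21 (limma adjusted p = 0.0125). YCL019W is the Gag-Pol reading frame of a Ty transposon that ends 908 bases before LEU2. It lay at 19.6 and 22.7 in W303 vehicle, at 24.3 and 16.2 in W303 edelfosine, and at 1.43 and 1.6 in BY4741 (-3.10 ± 0.20, limma adjusted p = 0.00218). Other Ty copies share most of its sequence, so how reads were divided among them is uncertain. No neighbour of MET17 or HIS3 passed the test.

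HIS3, the dehydratase of histidine synthesis, had a difference of 1.17 that did not pass the test (limma adjusted p = 0.243), so its RNA was not shown to differ. TRP1 and ADE2, for which W303 is usually mutant, were higher in BY4741. TRP1, an enzyme of tryptophan synthesis, lay at 19.5 and 26.8 scaled TPM in W303 vehicle, at 18.4 and 25.2 in W303 edelfosine, and at 82.8 and 127 in BY4741 (2.16 ± 0.25, limma adjusted p = 0.0214). ADE2, an enzyme of purine synthesis, lay at 7.2 and 6.68 in W303 vehicle, at 8.6 and 8.81 in W303 edelfosine, and at 15.8 and 21.4 in BY4741 (1.15 ± 0.14, limma adjusted p = 0.0283). The BY4741 values of both genes were above all 4 of W303. None of the 3 nearest rows on either side of TRP1 or ADE2 was called. CAN1, the arginine permease, at -0.34, and LYS2, the aminoadipate reductase of lysine synthesis, at -0.03, did not pass.

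**Figure D2:**
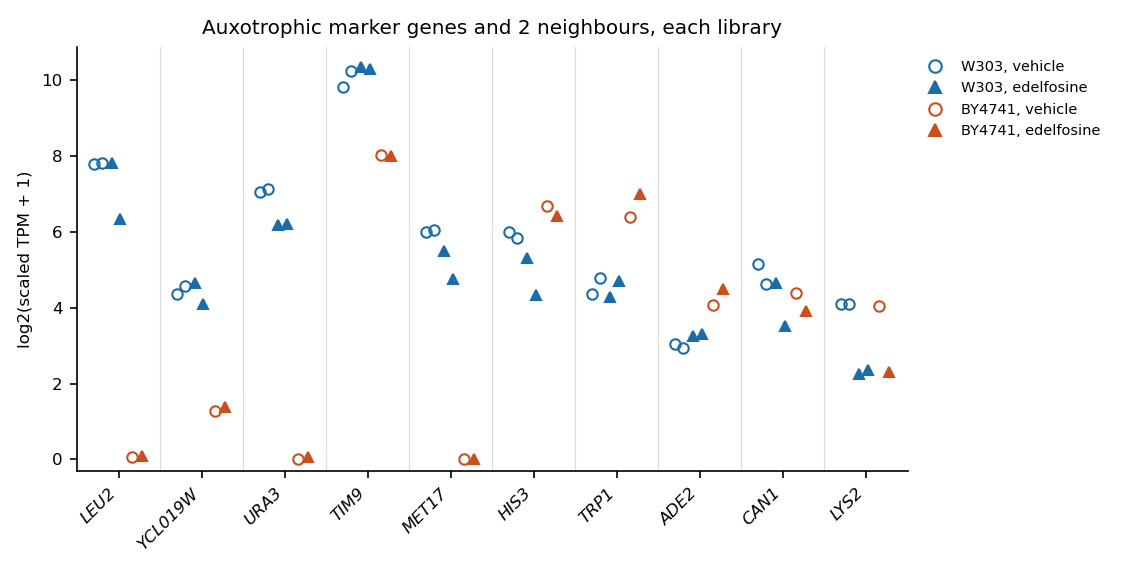
Scaled TPM on a log2(value + 1) axis in each of the 6 libraries for 8 auxotrophic and resistance markers and for YCL019W and TIM9, rows near LEU2 and URA3; colour gives the strain and symbol the treatment. LEU2, URA3 and MET17 sit at or near 0 in both BY4741 libraries, TIM9 and YCL019W lie below W303, and TRP1 and ADE2 lie above it.

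The rest of the pathways that lack an enzyme in BY4741 gave no further call. Of 14 genes of branched-chain and leucine synthesis and uptake other than LEU2, 0 were called and the median difference was -0.40, against -0.0071 over all rows. Of 16 genes of pyrimidine synthesis and uptake, 0 were called, with a median of -0.14. URA1, the dihydroorotate dehydrogenase upstream of Ura3, had the largest value among them: it lay at 108 and 123 scaled TPM in W303 vehicle, at 71.1 and 23.2 in W303 edelfosine, and at 553 and 179 in BY4741 (2.18 ± 0.41, limma adjusted p = 0.112). Of 42 genes of sulfur and methionine metabolism, 0 were called, with a median of 0.19.

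Genes of respiration and heme were lower in BY4741 at a few points. CYC1 encodes iso-1-cytochrome c, which carries electrons between respiratory complexes III and IV. It lay at 605 and 626 scaled TPM in W303 vehicle, at 204 and 122 in W303 edelfosine, and at 79.1 and 20.9 in BY4741 vehicle and edelfosine. Within each treatment the BY4741 library was far below both W303 libraries, a difference of -2.90 ± 0.24 (limma adjusted p = 0.00589). HMX1, the heme oxygenase that breaks heme down, lay at 76.6 and 63.2 in W303 vehicle, at 92 and 39.8 in W303 edelfosine, and at 12.2 and 3.57 in BY4741 (-3.08 ± 0.42, limma adjusted p = 0.0404). SUE1, which takes part in the breakdown of unstable cytochrome c, was lower too, at 3.32 and 19.9 in BY4741 against 9.89 and 13 in W303 vehicle and 63.7 and 71.7 in W303 edelfosine (-1.62 ± 0.17, limma adjusted p = 0.0168). Both HMX1 values of BY4741 were below all 4 of W303, whereas SUE1 was higher in the edelfosine libraries of both strains and parts the strains only within a treatment.

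CYC1 and HMX1 had the largest called differences of the lists on respiration and heme, and their upstream sequences are shown because Hap1 acts through paired CGG triplets. HMX1 is not on the list of genes activated by Hap1. It is on the list of the iron regulon, where it was the 1 call among 29, and no motif of an iron regulator was searched. The windows run from 350 to 101 bases before the annotated coding start in the reference genome R64, chrX:525985-526234 on the plus strand for CYC1 and chrXII:553778-554027 on the minus strand for HMX1. They are the reference sequence of S288C, not read from these libraries. Capitals mark every match to a searched motif on either strand.
CYC1: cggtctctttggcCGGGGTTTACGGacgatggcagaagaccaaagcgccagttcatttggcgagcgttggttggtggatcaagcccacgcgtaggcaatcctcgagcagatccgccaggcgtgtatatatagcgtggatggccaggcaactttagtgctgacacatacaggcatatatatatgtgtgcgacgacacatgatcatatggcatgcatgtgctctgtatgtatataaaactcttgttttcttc
HMX1: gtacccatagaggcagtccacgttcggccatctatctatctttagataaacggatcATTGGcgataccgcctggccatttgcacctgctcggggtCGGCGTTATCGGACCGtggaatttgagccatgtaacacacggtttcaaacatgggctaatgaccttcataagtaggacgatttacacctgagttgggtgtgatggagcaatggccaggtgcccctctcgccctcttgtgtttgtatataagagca
The Hap1 motif CGGNNNTANCGG occurs once in the HMX1 window, 255 bases before the start, and in 9 of 5738 windows of the same kind (0.157%). In HMX1 it overlaps a match to the Put3 motif CGGNNNNNNNNNNCCG, and a CCAAT box, the site of the Hap2, Hap3, Hap4 and Hap5 complex found in 37.5% of windows, lies 294 bases before the start. The CYC1 window holds none of the motifs first searched. It holds the looser repeat CGGNNNNNNCGG, added after the values were seen and present in 2.7% of windows, 337 bases before the start. The other genes whose window holds the full Hap1 motif ranged from -1.48 for HPA2 through -0.88 for QCR6, a subunit of complex III, to 1.01 for RTN2, and none of them was called. With HMX1 included, 5 of the 9 genes had a negative difference, as had 2934 of all 5750 rows.

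Most other listed targets of Hap1 had negative differences that did not pass the test. Of 12 genes listed as activated by Hap1, 1 was called (CYC1), 9 had a negative difference, 8 lay below W303 in both treatments and the median was -0.73. Over all 5750 rows, 0.73% were called, 2934 had a negative difference and 992 (17.3%) lay below W303 in both treatments. The median over all rows was -0.007. YHB1, the flavohemoglobin that detoxifies nitric oxide, lay at 900.1 and 891 scaled TPM in W303 vehicle, at 231 and 84.7 in W303 edelfosine, and at 222 and 19.9 in BY4741 (-2.38 ± 0.41, limma adjusted p = 0.0841). HMG1, the HMG-CoA reductase of sterol synthesis, lay at 26.1, 21.7, 24 and 14.4 in W303 and at 9.87 and 6.57 in BY4741 (-1.28 ± 0.23, limma adjusted p = 0.091). CYB2, the lactate dehydrogenase of the intermembrane space, had -0.81 (limma adjusted p = 0.28) and CYC7, the second cytochrome c, -0.38 (limma adjusted p = 0.844). CTT1, the cytosolic catalase, went the other way at 1.30 (limma adjusted p = 0.36). The RNA of HAP1 itself lay at 9.27 and 17.1 in W303 vehicle, at 16.5 and 19.4 in W303 edelfosine, and at 18.8 and 23.9 in BY4741, a difference of 0.47 that did not pass (limma adjusted p = 0.521).

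Most genes of the respiratory chain had lower values in BY4741 without passing the test, and the median difference was larger in vehicle than in edelfosine. Of 28 subunits and carriers tested, 1 was called (CYC1), 24 had a negative difference and 19 lay below W303 in both treatments. The median was -1.01 in vehicle and -0.23 in edelfosine. Over all 5750 rows, 2934 had a negative difference and 17.3% lay below W303 in both treatments. The medians over all rows were -0.017 in vehicle and 0.003 in edelfosine. COX5A, the aerobic form of a cytochrome oxidase subunit, lay at 359.7 and 377 scaled TPM in W303 vehicle, at 371 and 251 in W303 edelfosine, and at 122 and 144 in BY4741 (-1.33 ± 0.23, limma adjusted p = 0.0863). COX5B, its hypoxic counterpart, had 0.48 (limma adjusted p = 0.531). For 17 genes of the ATP synthase, 0 called, the medians were -0.66 in vehicle and -0.03 in edelfosine, and for 88 mitochondrial ribosomal proteins, 0 called, -0.17 and -0.56. Many of these genes are short, and the 1091 rows with at most 600 coding bases had medians of -0.15 in vehicle and 0.02 in edelfosine; the part of transcript length in the list medians was not tested.

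Heme synthesis did not share the pattern of HMX1. The 9 other genes on that list ranged from -0.36 for HEM12 to 0.36 for HEM15, and none was called. HEM13, the oxygen-requiring coproporphyrinogen oxidase, had 0.15 (limma adjusted p = 0.836). Among 16 genes repressed by Rox1 in air, 1 was called: TIR1, a cell-wall mannoprotein of anaerobic growth. It lay at 0.216 to 1.11 scaled TPM in W303 and at 2.2 and 4.01 in BY4741 (1.32 ± 0.18). TIR1 entered the test only through BY4741, so this call is a description. PLN1, the perilipin of lipid droplets, was lower in BY4741 (-1.44 ± 0.19, limma adjusted p = 0.037), and RSF2, a zinc-finger protein involved in growth on glycerol, was higher (1.25 ± 0.17, limma adjusted p = 0.0386). Of 27 ergosterol genes 0 were called, although 16 lay below W303 in both treatments, against 17.3% of all rows, and the median was -0.60.

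**Figure D3:**
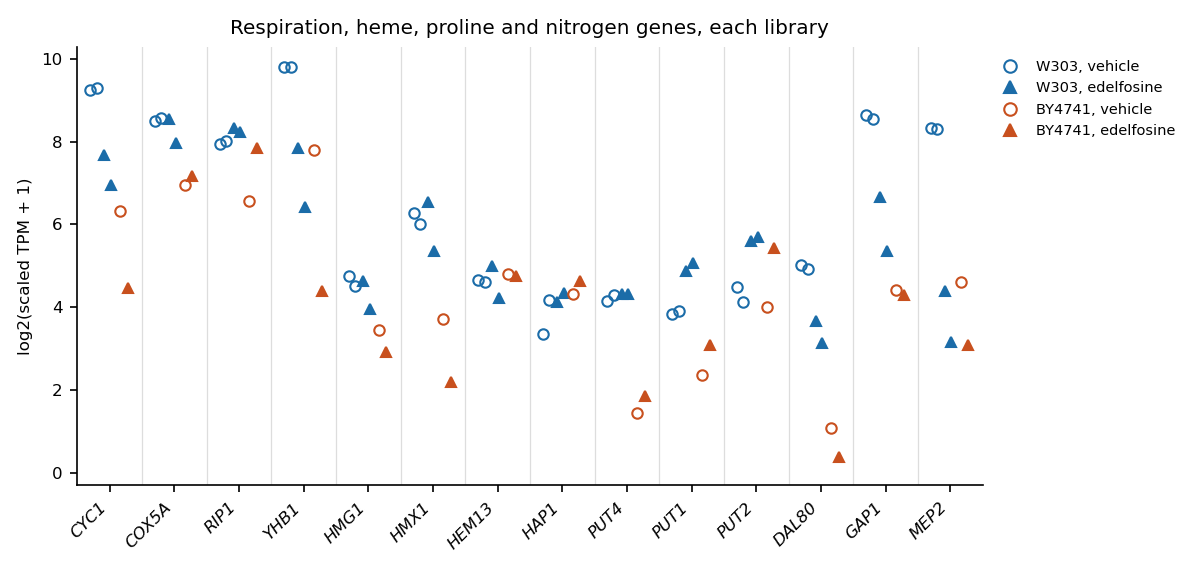
Scaled TPM on a log2(value + 1) axis in each library for genes of respiration, heme and sterols (CYC1 to HAP1) and of proline and nitrogen use (PUT4 to MEP2); colour gives the strain and symbol the treatment. CYC1, HMX1, PUT4, PUT1 and DAL80 were called lower in BY4741, and the other genes plotted were not called.

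RNA of PUT4 and PUT1, genes of proline uptake and of the first step of its breakdown, was lower in BY4741 in both treatments. PUT4, the high-affinity proline permease, lay at 16.8 and 18.7 scaled TPM in W303 vehicle, at 19 and 18.8 in W303 edelfosine, and at 1.72 and 2.59 in BY4741. The W303 values were nearly equal and the BY4741 values far below them (-2.63 ± 0.15, limma adjusted p = 0.0013). PUT1, the proline oxidase of mitochondria, lay at 13.2 and 14.1 in W303 vehicle, at 28.3 and 32.3 in W303 edelfosine, and at 4.18 and 7.47 in BY4741 (-1.69 ± 0.16, limma adjusted p = 0.0123). PUT2, which carries out the next step, had -0.26 (limma adjusted p = 0.592) and PUT3, their activator, -0.19 (limma adjusted p = 0.754). Of the 8 genes of proline use, 2 were called (25%), both lower, against 0.73% of all rows. The list was chosen with earlier results of these data known.

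The windows upstream of PUT4 and PUT1 are shown for the sites of Put3 and of GATA factors, cut as for CYC1, at chrXV:988883-989132 on the minus strand and chrXII:424836-425085 on the plus strand of R64.
PUT4: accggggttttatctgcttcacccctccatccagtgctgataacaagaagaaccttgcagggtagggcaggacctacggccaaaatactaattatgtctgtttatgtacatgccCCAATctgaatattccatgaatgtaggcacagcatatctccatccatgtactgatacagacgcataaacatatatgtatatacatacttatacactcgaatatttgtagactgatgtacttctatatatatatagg
PUT1: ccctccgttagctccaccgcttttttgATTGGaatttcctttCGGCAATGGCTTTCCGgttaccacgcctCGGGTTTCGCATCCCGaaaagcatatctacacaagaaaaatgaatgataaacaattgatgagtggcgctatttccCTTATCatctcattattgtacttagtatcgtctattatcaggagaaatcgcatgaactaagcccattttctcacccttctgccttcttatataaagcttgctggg
The PUT1 window holds 2 matches to the Put3 motif, 308 and 280 bases before the start, where 1.64% of all windows hold at least 1. It also holds a GATAAG match on the opposite strand 205 bases before the start (11.8% of windows) and a CCAAT box. The PUT4 window holds a CCAAT box 236 bases before the start and no match to the Put3 or GATA motif.

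DAL80 is a GATA-type repressor that nitrogen limitation itself turns on. It lay at 31.6 and 29.5 scaled TPM in W303 vehicle and at 11.7 and 7.73 in W303 edelfosine. In BY4741 it lay at 1.12 and 0.311 (-3.45 ± 0.26), and it entered the test only through W303. It was the 1 call among 38 genes under nitrogen catabolite repression, with medians of -0.61 in vehicle and -0.13 in edelfosine. Of the 38, 26 had a negative difference, as had 2934 of all 5750 rows. GAP1, the general amino acid permease, lay at 397 and 376 in W303 vehicle, at 101 and 39.7 in W303 edelfosine, and at 20.4 and 18.5 in BY4741 (-2.95 ± 0.60, limma adjusted p = 0.14). MEP2, the high-affinity ammonium permease, lay at 322 and 313 in W303 vehicle, at 20.1 and 7.96 in W303 edelfosine, and at 23.3 and 7.56 in BY4741 (-2.20 ± 0.69, limma adjusted p = 0.3). The strain difference was -4.18 in vehicle and -1.72 in edelfosine for GAP1, and -3.71 and -0.68 for MEP2, and for neither gene was it shown to differ between treatments (limma, interaction adjusted p = 1 for each). MEP1, a second ammonium permease, had -1.42 (limma adjusted p = 0.0675). The ASP3 asparaginase genes, identical copies that cannot be counted apart, had 0.12 for ASP3-1.

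**Figure D4:**
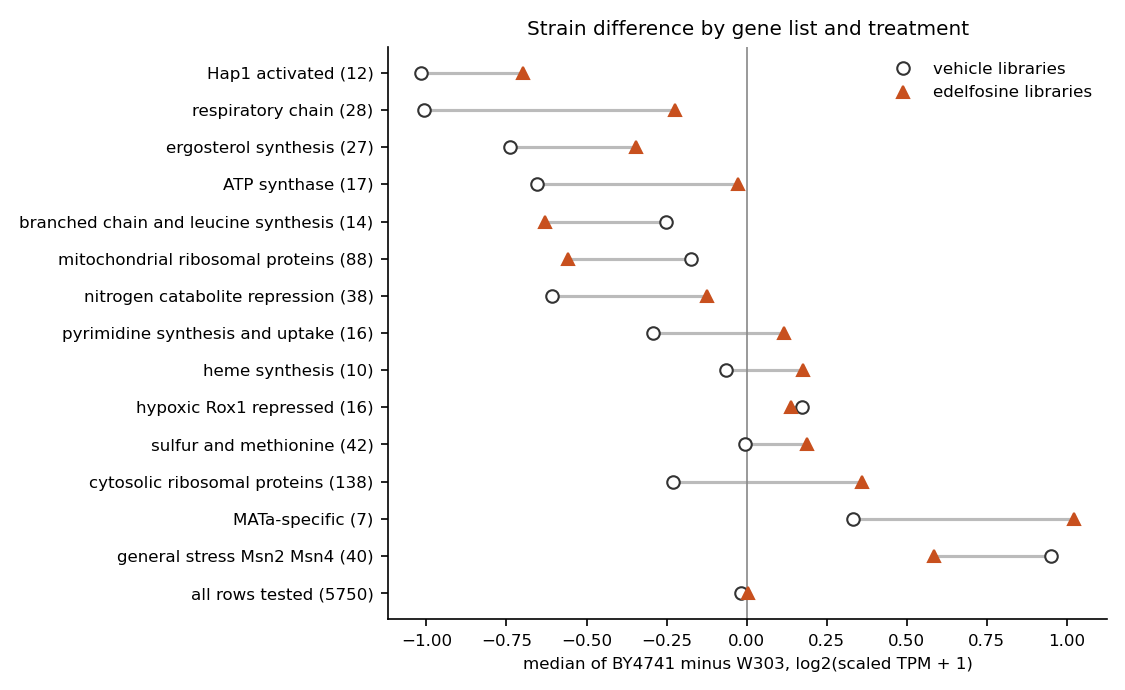
Median strain difference, BY4741 minus W303 on log2(scaled TPM + 1), of each gene list in vehicle (open circles) and edelfosine (triangles), with the number of rows tested in brackets. Hap1 targets and the respiratory chain lie lowest in vehicle, near -1, general stress genes highest in vehicle at 0.95, and all 5750 rows lie near 0; the lists were not tested.

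Among transporters, 2 were called higher in BY4741 besides the lower PUT4. QDR2, a pump of the major facilitator family that exports drugs and takes part in potassium balance, lay at 12.9 and 14.7 scaled TPM in W303 vehicle, at 4.55 and 6.27 in W303 edelfosine, and at 59.2 and 35.1 in BY4741 (2.27 ± 0.20, limma adjusted p = 0.00704). It was the only call among 28 drug efflux and related pumps. HXT6, a high-affinity glucose transporter, is listed at 0 in 3 W303 libraries and at 0.187 in vehicle replicate 2, and lay at 28.5 and 8.3 in BY4741 (3.99 ± 0.34). Its neighbour HXT7 is nearly identical, so the division between them is uncertain. The sum of HXT6 and HXT7 was 55.2 and 67.9 in W303 vehicle, 48.6 and 12.7 in W303 edelfosine, and 283 and 217 in BY4741, again above all 4 of W303. The other 22 hexose and sugar transporters tested were not called, nor were any of 50 metal and ion transporters; ENA1, a sodium pump whose copy number differs among strains, had 0.18, ENA2 1.08 and ENA5 0.15.

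SOR1 and SOR2, nearly identical sorbitol dehydrogenase genes, went opposite ways. SOR1 was at -2.08 ± 0.24 (limma adjusted p = 0.0214) and SOR2, seen at 1 TPM in BY4741 only, at 2.14 ± 0.24, and their sum was 11, 16.1, 17 and 23.3 scaled TPM in W303 against 5.14 and 9.56 in BY4741. CRS5, a copper-binding metallothionein, lay at 239 and 299 in W303 vehicle, at 1432 and 1445 in W303 edelfosine, and at 96.3 and 492 in BY4741 (-1.51 ± 0.19, limma adjusted p = 0.0283). CUP1-1, the main metallothionein, whose copies have identical values, had -0.29. RIB4, the lumazine synthase of riboflavin synthesis, lay at 249 and 280.1 in W303 vehicle, at 397 and 366 in W303 edelfosine, and at 745 and 1418 in BY4741 (1.69 ± 0.19, limma adjusted p = 0.0214).

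Several differences lay at chromosome ends or in repeated families. AIF1, a mitochondrial protein that promotes cell death, is listed at 0 in all 4 W303 libraries and lay at 22.8 and 20.9 scaled TPM in BY4741 (4.51 ± 0.14). With no spread in W303, its standard error says nothing of how that strain varies. It lies near the right end of chromosome XIV, a stretch looked at after its values were seen. There, in deposited TPM, PDR18, a transporter of the ABC family, YNR071C, a putative epimerase, and AIF1 are listed at 0 in all 4 W303 libraries. HXT17, a hexose transporter, and MAN2, a mannitol dehydrogenase, reach at most 0.0316 and 0.0442 there. In BY4741 these 5 neighbouring genes lay between 0.301 for HXT17 and 25.1 for AIF1. BSC5 on the inner side of the stretch lay at 3.7 to 6.68 in W303 and COS10 on the outer side at 3.37 to 30.7. The rows next to the stretch thus had RNA in W303. Further out, PAU6 reached at most 0.218 in W303 and YNR077C lay at 0 to 1.96.

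**Figure D5:**
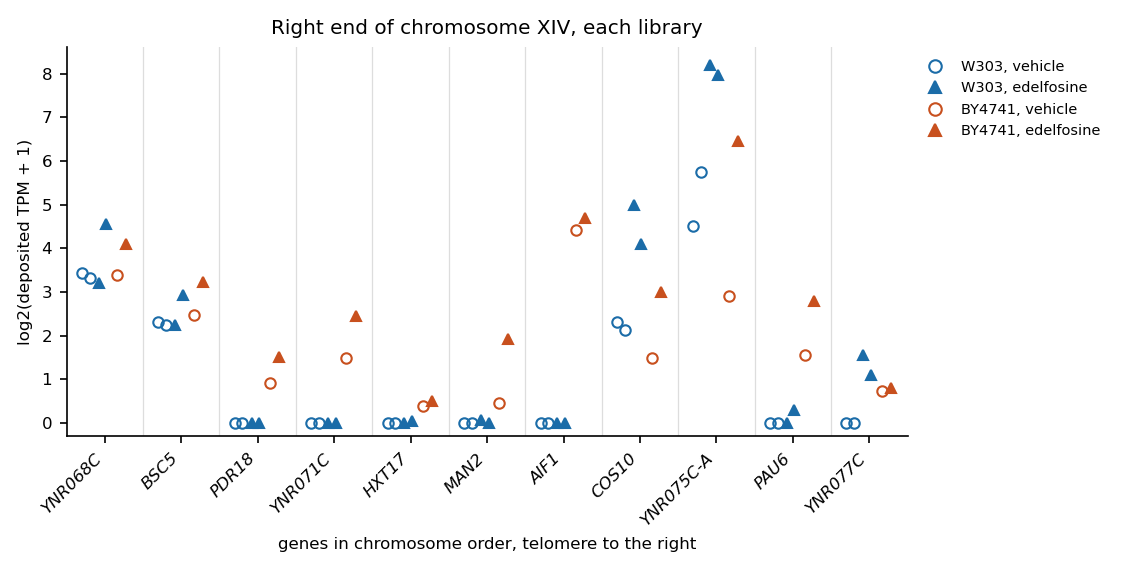
Deposited TPM on a log2(value + 1) axis in each library for 11 successive genes with a row at the right end of chromosome XIV, in chromosome order with the telomere on the right; colour gives the strain and symbol the treatment. From PDR18 to AIF1 the 4 W303 libraries lie at or near 0 and both BY4741 libraries above it, while YNR068C, BSC5, COS10 and YNR075C-A are expressed in both strains.

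The seripauperins, subtelomeric cell-wall mannoproteins, went both ways: PAU9 was lower in BY4741 (-4.24 ± 0.62, limma adjusted p = 0.0479), whereas PAU6 and PAU18, rows with identical values, were higher (2.06 ± 0.22). PAU9 varied widely within W303, at 4.76 and 25 scaled TPM in vehicle and 85 and 127 in edelfosine, and lay at 0 and 2.61 in BY4741. COS4, of a family of subtelomeric membrane proteins, was lower, the 1 call among 11. Of 63 Ty rows, 4 were called higher and 1, YCL019W, lower (7.94%, against 0.73% of all rows). Among the higher ones, YBR012W-B, YLR227W-B and YNL284C-B reached 1 TPM in BY4741 only, so their calls are descriptions. The median difference of the 63 rows was -0.23, and 39 of the 63 were negative. YLR227W-B, with the largest difference of them, lay at under 1 scaled TPM in all 4 W303 libraries and at 21.8 and 24.4 in BY4741 (4.33 ± 0.16). YBR013C, a gene of unknown function 351 bases from the Ty row YBR012W-B, is listed at 0 in 3 W303 libraries and at 0.395 in vehicle replicate 2, and lay at 20.7 and 62 in BY4741 (5.09 ± 0.39). YBR012W-B itself lay at 2.08 and 1.98 in BY4741 and under 1 in W303 (1.24 ± 0.17).

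The remaining calls were single genes. Lower in BY4741 were NCW2, a cell-wall protein (-1.46), KDX1, a protein kinase related to the cell-wall kinase Slt2 (-1.51), AAD15, a putative aryl-alcohol dehydrogenase (-1.69), the small proteins or reading frames YER053C-A (-1.89), YGL260W (-2.75) and YPR078C (-1.05). Higher were PSR1, a plasma-membrane phosphatase (1.23), GAS2, a glucan-remodelling enzyme of the spore wall (1.34), YJL136W-A (1.68), YNR071C (1.91) and the Ty rows YGR027W-B (1.29) and YNL284C-B (1.99).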

How the data were processed

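RNA of 6 libraries was analysed from 1 table with a row per gene. Its columns share 1 total and hold fractions, so the values deposited by the authors were read as TPM. Kallisto and sleuth appear in the submitters' processing notes, with no version; no source used here gives the transcript set or build. Of 5917 rows, 5911 matched R64, which gave names, order and sequences. Rows reaching 1 TPM in 2 or more libraries (5750) were tested and scaled by a trimmed mean of M values (30% of M and 5% of A values trimmed), with factors from 0.715 to 1.25. limma 3.58.1 with statmod 1.5.0 in R 4.3.3 (empirical Bayes with trend) was fitted to log2(scaled TPM + 1) with strain and treatment (3 residual and 3.38 prior degrees of freedom), adjusted by Benjamini-Hochberg over all rows; an adjusted p under 0.05 was called. This scale understates differences of low genes, and depth is unknown. In total 53 rows share identical values with another. The fit was tested on simulated data.

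The comparison, the lists of genes and the naming rule were chosen with earlier results of these data known. The rule took auxotrophic markers, their neighbours, up to 4 called members per list, the 10 largest differences in each direction, genes of Hap1, proline use and copy number, and the 5 smallest interaction p. Other genes were chosen after their values were seen. Alternatives changed scaling, filter, pseudocount, design and libraries.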

Additional observations from a re-analysis of the deposited data

Results flagged for a closer look

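For 4 named genes BY4741 lay above both W303 libraries in one treatment and below both in the other. How many of all rows did so was not counted, so the number is no result about these genes. ECM12 had a strain difference of -1.36 in vehicle and 1.15 in edelfosine, a change of 2.51 on the log2 scale (limma adjusted p = 0.743). ZPS1, a wall protein of zinc-limited cells, had -2.44 in vehicle and 0.30 in edelfosine, a change of 2.74 (limma adjusted p = 0.623). GEA2, next to URA3, changed by -0.49 between treatments and PUT3 by -0.60, each with a limma adjusted p of 1.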

How the results depend on the processing

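The 42 calls, 20 higher and 22 lower, moved most with the libraries used. Vehicle libraries alone gave 487 calls (262 higher, 225 lower, 319 of them apart in both treatments), which hold all 42, and edelfosine libraries alone gave 0. Without the treatment term there were 9 (4 higher, 5 lower). Leaving out 1 library gave 9 to 222 calls (2 to 130 higher, 5 to 92 lower, 9 to 182 apart in both treatments) and 0 to 333 interaction calls. A filter of 1 TPM in 3 libraries gave 24 (9 higher, 15 lower) and of 10 TPM in 2 libraries 23 (8 higher, 15 lower). Against a 1.5-fold difference 15 remained (6 higher, 9 lower). With 1 value per replicate number there were 19 (9 higher, 10 lower). The fit with a replicate block gave 34 (17 higher, 17 lower), 30 of them among the 42, and as a random effect 59 (25 higher, 34 lower). The numbers mark no known pairing, and with 2 pairs in W303 the deviations of same-numbered libraries correlated at 0.058. A pseudocount of 5 gave 1 interaction call. Scaling, no filter, a pseudocount of 0.1, no trend, a robust fit and leaving out identical rows moved no strain count by over 1.5 times. The interaction could not be fitted within 1 treatment, on averages, with a random block or without a BY4741 library. Where a cause is not given by how an alternative is built, the cause was not tested. BY4741 has 1 library per treatment, which limits every value here.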

Other observations

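General stress genes driven by Msn2 and Msn4 had mostly higher values in BY4741, with 0 of 40 called, 38 above 0, 23 above W303 in both treatments and a median of 0.82 against -0.0071 over all rows. Over all 5750 rows, 2816 were above 0 and 949 (16.5%) lay above W303 in both treatments. TSL1, a subunit of the trehalose synthase complex, lay at 5.98 and 5.73 scaled TPM in W303 vehicle, at 32.5 and 121 in W303 edelfosine, and at 24.4 and 182 in BY4741 (1.70 ± 0.48, limma adjusted p = 0.251). GSY2, the main glycogen synthase, lay at 17.9 and 17.1 in W303 vehicle, at 38.8 and 92.8 in W303 edelfosine, and at 57.7 and 195 in BY4741 (1.67 ± 0.33, limma adjusted p = 0.13). In both genes W303 edelfosine replicate 1 was below replicate 2.

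All 7 MATa-specific genes lay above W303 in both treatments, against 16.5% of all rows, 0 of them called, with a median of 0.71. MFA1, an a-factor gene, lay at 2258 and 2138 in W303 vehicle, at 562 and 566 in W303 edelfosine, and at 4209 and 1059 in BY4741 (0.92 ± 0.19, limma adjusted p = 0.146). The 138 cytosolic ribosomal protein genes, 0 called, had medians of -0.23 in vehicle and 0.36 in edelfosine.

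YHL015W-A and YMR321C, like AIF1, are listed at 0 in all 4 W303 libraries. YHL015W-A lay at 4.13 in BY4741 vehicle and at 129 in BY4741 edelfosine, and YMR321C at 16 and 1.95. Both entered the test only through BY4741, so their values are given as descriptions and without a p-value. Neither was among the 42 calls.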
